A study of Homo sapiens with 72 samples.

Results

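A rule applied at 24 h picked 96 long non-coding RNA (lncRNA) genes. Their differences between TGF-β and a TGF-β receptor inhibitor were opposite in a Ras-transformed breast epithelial line and in the line it was made from. In M2, the transformed line, 53 of them were lower after 24 h of TGF-β than after 24 h of the TGF-β receptor inhibitor SB431542 (SB), while the same 53 were higher in M1, the untransformed line. The other 43 were higher with TGF-β in M2 and lower in M1. They were all the genes that met the rule below, out of 16505 genes tested in both lines and 96411 in the table. At 8 h, 2 of the 96 met the same limits in the same direction.

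The members were chosen on the 12 libraries at 24 h. For each line the mean of log2(TPM + 0.5) with SB was subtracted from that with TGF-β, and the median of this difference over all genes tested in the line was subtracted in turn, so that every value is relative to the median gene. TPM is a length-corrected share of transcripts, here of those of the lncRNA genes alone. A gene was tested in a line where it reached 0.5 TPM in at least 3 of its 24 libraries. Members had to reach 0.4 in one line and −0.4 in the other, with the 3 TGF-β and the 3 SB libraries not overlapping in TPM in either line. The values at 24 h in M2 and M1 are therefore a description, and only the other times and the third line give tests. The members just inside the limit had a smaller absolute difference of 0.405, 0.406 and 0.408, and the genes just outside it had 0.399, 0.395 and 0.393. By the same limits 1036 genes were lower with TGF-β in both lines and 619 were higher in both.

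TGF-β binds a pair of receptor kinases, the type II and the type I receptor, which phosphorylate SMAD2 and SMAD3; these enter the nucleus with SMAD4 and change the transcription of many genes, lncRNA genes among them. SB431542 blocks the kinase of the type I receptor and so removes signalling by ligand that cells make themselves. In mammary epithelium the pathway is known for stopping growth and for driving epithelial cells toward a mesenchymal state, and cells with active Ras are known to respond to it differently from normal ones.

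Total RNA was sequenced from MCF10A-M2 (M2), human MCF10A breast epithelial cells transformed with HA-Ras and labelled pre-malignant, from MDA-MB-231, a triple-negative breast cancer line, and from MCF10A-M1 (M1), labelled normal breast epithelium. Cells of every group spent the night before without serum. TGF-β (5 ng/mL) was then given for 2, 8 or 24 h, with non-stimulated cells at 0 h, or SB (10 µM) for 2, 8 or 24 h, with a first SB sample titled 0 h and labelled 0.5 h that is called the earliest SB sample. Each of the 24 groups held 3 libraries, described as biological triplicates. Every contrast at 2 to 24 h thus sets a ligand against an inhibitor. None of the 72 libraries listed is labelled as untreated or as vehicle alone at those times. The labels do not say whether M2 is 1 clone. Protein-coding genes, among them the markers of epithelium and the HRAS gene, were not analysed here, so the identity of the lines was not checked.

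The TPM of each library were scaled over lncRNA genes alone, and the depth behind them is unknown. Between 8458 and 16748 genes reached 0.5 TPM in a library, and the single most abundant gene held 21.1% to 39.6% of its TPM. In M2 the number of such genes was 9080 ± 921 after 24 h of TGF-β and 9310 ± 42.9 after 24 h of SB, against 13571 ± 910 and 13123 ± 1020 at the start of the same arms (SD, n = 3 each). The part of this fall in the members' values was not tested. In bulk RNA a lower level per cell and fewer cells with the transcript cannot be told apart.

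The files give NONCODE identifiers without gene names, and none of the 96 matched an annotation at hand, so 2 members of each direction are followed by identifier and the others are described by their levels. Functions and sequences of the members are for that reason not given.

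At 24 h the 53 genes had a median difference of −0.75 in M2 (range −2.23 to −0.41) and 0.82 in M1 (range 0.41 to 2.62), on the log2 scale. The 43 genes of the other direction had a median of 0.68 in M2 (range 0.41 to 2.27) and −0.71 in M1 (range −2.48 to −0.41). Although every member passed the rule, limma with Benjamini-Hochberg adjustment over all genes called only a part of them at 24 h. In M2 it called 20 of the 53 lower, where 6.1% of all genes tested were called lower, and 7 of the 43 higher, where 3.67% were. In M1 it called 36 of the 53 higher, against 6.02% of all genes, and 14 of the 43 lower, against 4.89%. Since the same libraries chose the members, nothing is read from these shares.

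**Figure D1:**
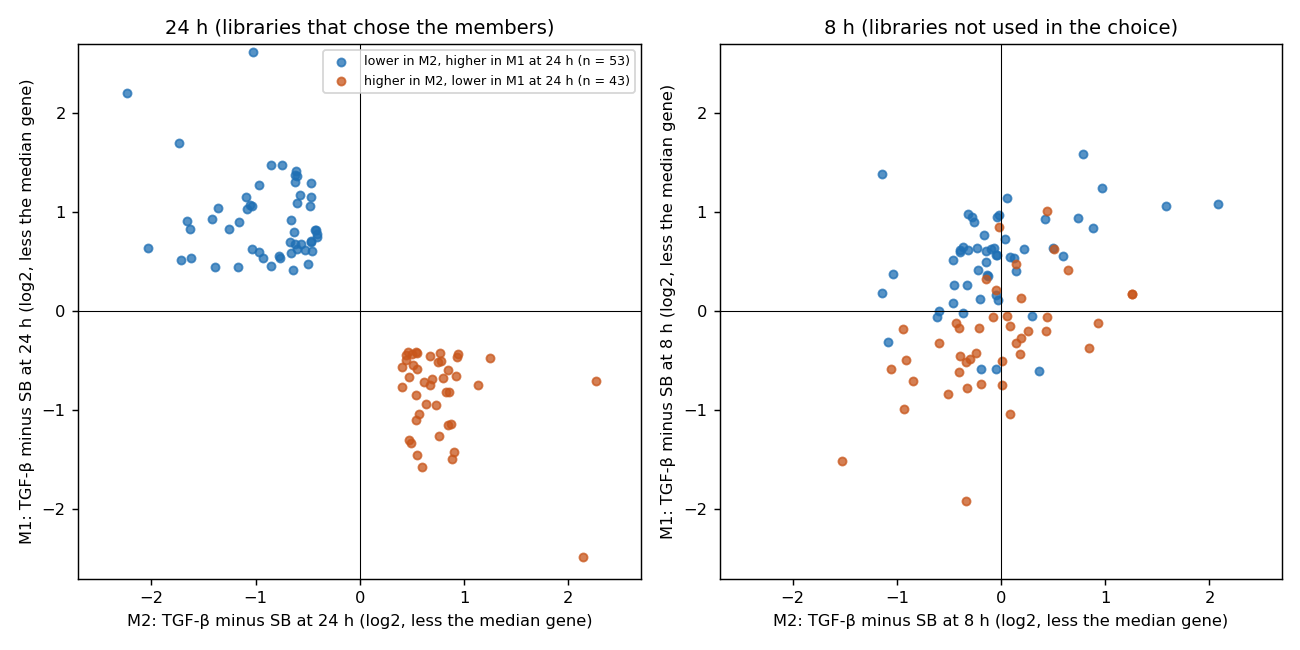
TGF-β minus SB in M2 (x axis) and in M1 (y axis), in log2 units relative to the median gene, for the 53 members lower in M2 and higher in M1 (blue) and the 43 members of the other direction (orange). Left, the 24 h libraries that chose the members, which the rule places in 2 corners; right, the 8 h libraries, where most blue points lie above 0 in M1 (46 of 53) and spread on both sides of 0 in M2 (17 above and 36 below).

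NONHSAG033896.3 led the 53 genes. At 24 h in M2 it stood at 2.49, 2.63 and 2.90 TPM with TGF-β, against 19.1, 20.9 and 8.85 TPM with SB. In M1 at 24 h it stood at 3.25, 11.8 and 39.6 TPM with TGF-β, against 3.15, 2.30 and 2.33 TPM with SB. The M2 groups lay well apart, with means of 16.3 TPM with SB and 2.67 TPM with TGF-β, against 7.67 and 5.26 TPM at the start of these arms. In M1 the lowest TGF-β library barely cleared the highest SB library. At 8 h in M2 the order was the other way round, with 7.07, 2.74 and 3.24 TPM with TGF-β, all above the 1.74, 1.26 and 1.81 TPM with SB. That difference was 0.88 (SE 0.49), short of the threshold (limma, adjusted p = 0.347).

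NONHSAG007423.2 came next among those of the 53 with at least 1 TPM on average in both lines. With TGF-β for 24 h it had 2.45, 1.08 and 2.62 TPM in M2, against 4.86, 5.02 and 5.25 TPM with SB. In M1 it had 14.1, 13.5 and 15.3 TPM with TGF-β, against 6.25, 10.6 and 5.46 TPM with SB. The TGF-β libraries were the lower group in M2 and the higher group in M1, with 2.05 ± 0.84 TPM in M2 and 14.3 ± 0.95 TPM in M1 (SD, n = 3 each). At 8 h its M1 values overlapped, at 5.11, 2.09 and 4.58 TPM with TGF-β and 4.89, 1.45 and 1.33 TPM with SB, a difference of 0.61 (SE 0.41; limma, adjusted p = 0.457). In M2 at 8 h the difference was −0.14 (SE 0.33; limma, adjusted p = 0.865).

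NONHSAG048316.2 led the 43 genes, but on single libraries near 0. At 24 h in M2 it had 20.5, 19.1 and 17.1 TPM with TGF-β, against 0, 14.9 and 12.7 TPM with SB. In M1 it had 55.6, 0.183 and 80.6 TPM with TGF-β, against 90.9, 91.4 and 98.0 TPM with SB. Without the SB library at 0 its M2 difference was 0.53 in place of 2.14, and without the low TGF-β library its M1 difference was −0.31 in place of −2.48, which would not have met the limit. Of the 96 members it was the one with a library under 0.5 TPM beside 2 over 5 TPM in a group at 24 h, and in MDA-MB-231 it also had isolated libraries near 0, for example 0.0438 TPM beside 21.6 and 24.5 TPM with SB at 24 h.

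NONHSAG041242.2 was the next of the 43 by rank with at least 1 TPM on average in both lines. At 24 h it had 1.56, 2.24 and 1.88 TPM with TGF-β in M2, against 0.729, 1.05 and 0.838 TPM with SB. In M1 it had 4.18, 2.71 and 5.67 TPM with TGF-β, against 14.8, 13.0 and 15.0 TPM with SB. The groups lay apart in both lines, and in M1 the SB arm stood out as high. At 8 h in M1 it already had 8.96, 6.62 and 8.64 TPM with TGF-β, against 10.9, 18.4 and 14.4 TPM with SB. The groups did not overlap there, and the difference of −0.84 (SE 0.26) lay just beyond the threshold (limma, adjusted p = 0.0540; under the alternatives in which it passed, it was −0.80 to −1.03). In M2 at 8 h it had 1.57, 1.43 and 1.66 TPM with TGF-β, against 1.58, 1.90 and 2.55 TPM with SB, a difference of −0.50 (SE 0.30; limma, adjusted p = 0.380) with the sign opposite to that at 24 h.

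**Figure D2:**
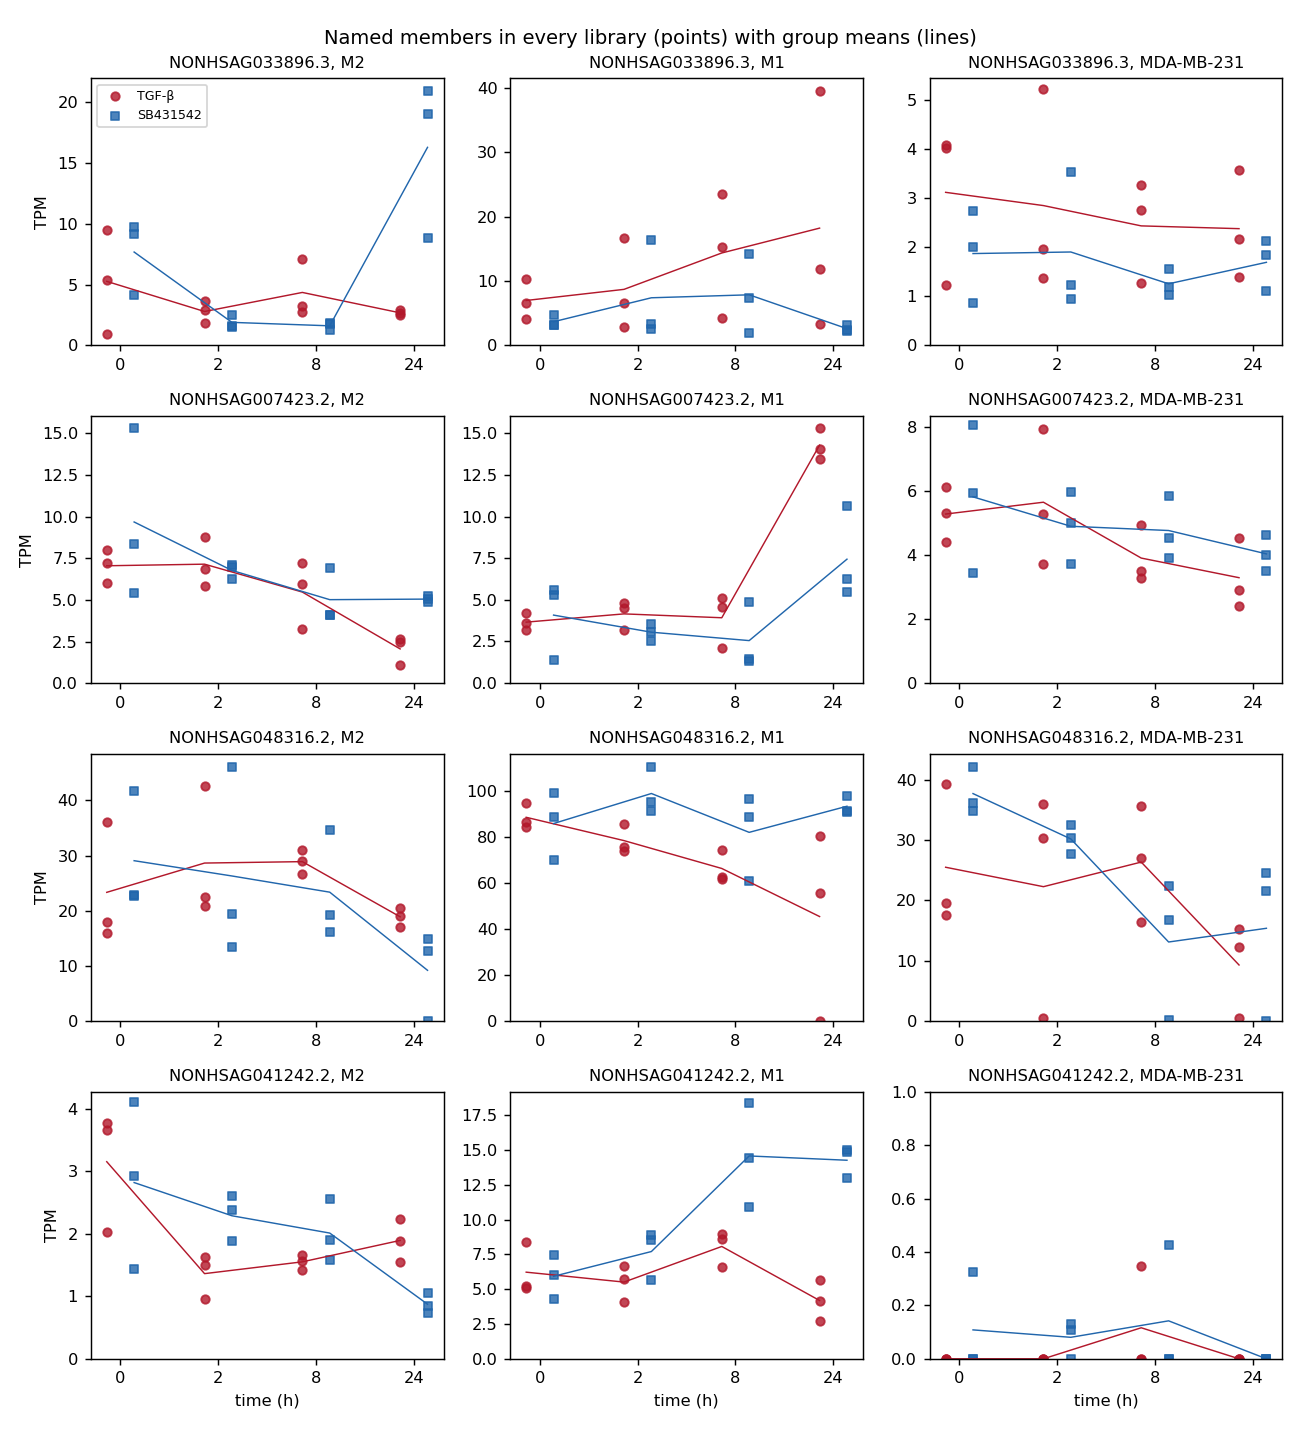
TPM (y axis, linear from 0, own scale in each panel) of the 4 named members against time in hours, 1 point per library (red circles TGF-β, with the non-stimulated libraries at 0 h; blue squares SB, with the earliest SB libraries at 0 h) and lines through the group means (n = 3). The separation of the arms of NONHSAG007423.2 appears at 24 h, down in M2 and up in M1, while NONHSAG048316.2 at 24 h rests on single libraries near 0.

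The 8 h libraries, which had no part in the choice, show how far the opposite differences hold at an earlier time. Among the 53 genes the M2 side was not seen at 8 h. Their median difference in M2 was −0.12, which turned to 0.11 with TPM as deposited and to 0.08 with no filter on low values. Limma called 2 of them lower, where 1.86% of all genes were called lower, and 3 higher, where 2.72% were. The TGF-β libraries lay below the SB libraries in TPM in 5 members, against 6.43% of all genes, and above them in 8, against 21.6%. The M2 calls were few and unstable. The 8 calls over both directions came down to 3 without M2 TGF-β replicate 2 or without M2 SB replicate 1, and to 4 without TGF-β replicate 3 or SB replicate 2. With libraries rescaled by median of ratios, 7 of the 53 were called lower and 3 higher, where 6.88% and 5.71% of all genes were.

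The M1 side of the 53 genes was already present at 8 h. Their median difference in M1 was 0.57, and 46 of the 53 lay above 0. Limma called 22 of them higher and 0 lower, where 4.88% of all genes tested were called higher; the called differences ranged from 0.37 to 1.59. In 37 of the 53 the 3 TGF-β libraries lay above the 3 SB libraries, against 15.5% of all genes, and in 0 below. Of the members with at least 5 TPM in M1, 19 of 38 were called higher, against 9.55% of genes at that level. The M2 differences of the 22 called members had a median of −0.04 and ran from −0.39 to 1.58, with 13 below 0 and 2 called higher in M2 as well.

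The difference between the lines was tested directly as the M2 response minus the M1 response at 8 h. Its median over the 53 genes was −0.57, and it had the sign of 24 h in 45 of them. Limma called 3 as lower in M2 than in M1, where 0.421% of all genes were called lower, and at an unadjusted p under 0.05 there were 21, all lower, where 9.01% of all genes lay under that p in either direction. Among the 35 of these genes with at least 5 TPM the median was −0.57, against −0.11 for all genes at that level. The number called among the 53 depended on the scaling. It was 17 of 53 after median-of-ratios rescaling, where 0.833% of all genes were called lower, and 1 with TPM as deposited, where 0.261% were. It was also 1 without M1 SB replicate 2. In every one of these settings the median of the 53 genes was below 0, between −0.65 and −0.42.

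The 3 called members differed in the line where the agents stood apart. The first was abundant, at 372 TPM on average in M2 and 358 TPM in M1. At 8 h in M2 it had 244, 312 and 319 TPM with TGF-β, against 563, 547 and 526 TPM with SB. In M1 at 8 h it had 411, 448 and 414 TPM with TGF-β, against 352, 354 and 381 TPM with SB. It was lower with TGF-β than with SB in M2 (−1.14, SE 0.19, limma, adjusted p = 0.000427). From the start to 8 h its M2 mean went from 386 to 292 TPM in the TGF-β arm and from 447 to 545 TPM in the SB arm. Its M1 difference of 0.19 (SE 0.09) did not pass (limma, adjusted p = 0.250). Its interaction was −1.29 (SE 0.21; limma, adjusted p = 0.000256). At 24 h the same gene had 129, 103 and 127 TPM with TGF-β in M2, against 323, 363 and 315 TPM with SB.

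In the other 2 called members the difference between the agents at 8 h was in M1. The second had 6.60, 11.96 and 9.39 TPM in M2 with TGF-β, against 7.79, 11.2 and 10.4 TPM with SB. In M1 it had 41.1, 37.6 and 38.5 TPM with TGF-β, against 18.7, 19.02 and 18.9 TPM with SB. Its M2 groups overlapped and its M1 groups lay far apart, with an interaction of −1.27 (SE 0.28; limma, adjusted p = 0.0167). The third had 55.9, 76.2 and 87.1 TPM in M2 with TGF-β, against 72.3, 64.1 and 85.1 TPM with SB. In M1 it had 169, 159 and 172 TPM with TGF-β, against 85.5, 91.5 and 82.9 TPM with SB. Here too the M2 groups overlapped and the M1 groups did not, with an interaction of −1.12 (SE 0.26; limma, adjusted p = 0.0293). Neither met the rule once the median of its level class was subtracted, a setting described with the levels.

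The most abundant member, at 550 TPM in M2 and 499 TPM in M1, had the same M1 side. At 8 h it had 470, 740 and 731 TPM in M2 with TGF-β, against 428, 463 and 665 TPM with SB, and these groups overlapped. In M1 at 8 h it had 738, 601 and 799 TPM with TGF-β, against 453, 486 and 474 TPM with SB. That difference was 0.55 (SE 0.11, limma, adjusted p = 0.00236). At 24 h in M2 it had 340, 245 and 316 TPM with TGF-β, against 526, 523 and 374 TPM with SB. It too failed the rule with the median of its level class subtracted.

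Of the 43 genes of the other direction few passed the test at 8 h. In M2, where they were higher at 24 h, their median at 8 h was −0.05, or 0.18 with TPM as deposited and 0.15 with no filter. Limma called 0 of them higher there, where 2.72% of all genes were, and 3 lower, where 1.86% were. At an unadjusted p under 0.05 there were 9 of the 43, 3 higher and 6 lower, where 18.7% of all genes lay under that p in either direction. In M1 their median was −0.26, with 33 below 0, and limma called 4 lower and 0 higher, where 3.25% of all genes tested were called lower. The TGF-β libraries lay below the SB libraries in 13 of the 43 in M1, against 10% of all genes, and above in 1. All 4 members called lower in M1 had M2 values below 0, from −1.52 to −0.19, and 2 of them were called lower in M2 as well. The M2 response minus the M1 response had a median of 0.22 and the sign of 24 h in 29 of the 43. Limma called 0, where 0.169% of all genes were called higher, and 4 had an unadjusted p under 0.05, all higher.

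Applied to the 8 h libraries as a whole, the rule with the same limits picked 19 genes lower in M2 and higher in M1 and 53 genes of the other direction. Of these, 2 and 0 were members. By these limits, 2 of the 96 genes had opposite differences in M2 and M1 at both times.

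At 2 h the members had not separated. The 53 genes had a median of 0.15 in M2 and 0.14 in M1, and the 43 genes had 0.01 in M2 and −0.11 in M1. Limma called 0 of the 96 in M2, where 0.896% of all genes were called, and 7 had an unadjusted p under 0.05, where 11.7% of all genes did. In M1 it called 2, both among the 53, 1 higher and 1 lower, where 1.06% and 0.311% of all genes were; after median-of-ratios rescaling the 2 calls were both higher, and 1 call was left without TGF-β replicate 1 or 2 or SB replicate 1 or 2. The difference between the lines was called in 0, where 0.0458% of all genes were called, with 7 at an unadjusted p under 0.05, where 9.01% of all genes were.

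At the start, non-stimulated cells minus the earliest SB samples, limma called 0 members in M2, where 0.0354% of all genes were called, and 0 in M1, where 0% were. At an unadjusted p under 0.05 there were 5 in M2 and 3 in M1. Of all genes, 9.46% in M2 and 5.18% in M1 lay under that p. The M2 medians at the start were −0.17 for the 53 genes and 0.19 for the 43. Over all genes the M2 median at the start was −0.20 above 50 TPM and 0.12 at up to 0.5 TPM, and it was highest, at 0.15, at 0.5 to 1 TPM. The part of level in the members' medians at the start was not tested. Among genes with at least 5 TPM in M2, the 37 members of the first direction had −0.19 and the 11 of the second −0.18, against −0.17 for all genes at that level. In M1 the medians at the start were −0.05 and −0.02.

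**Figure D3:**
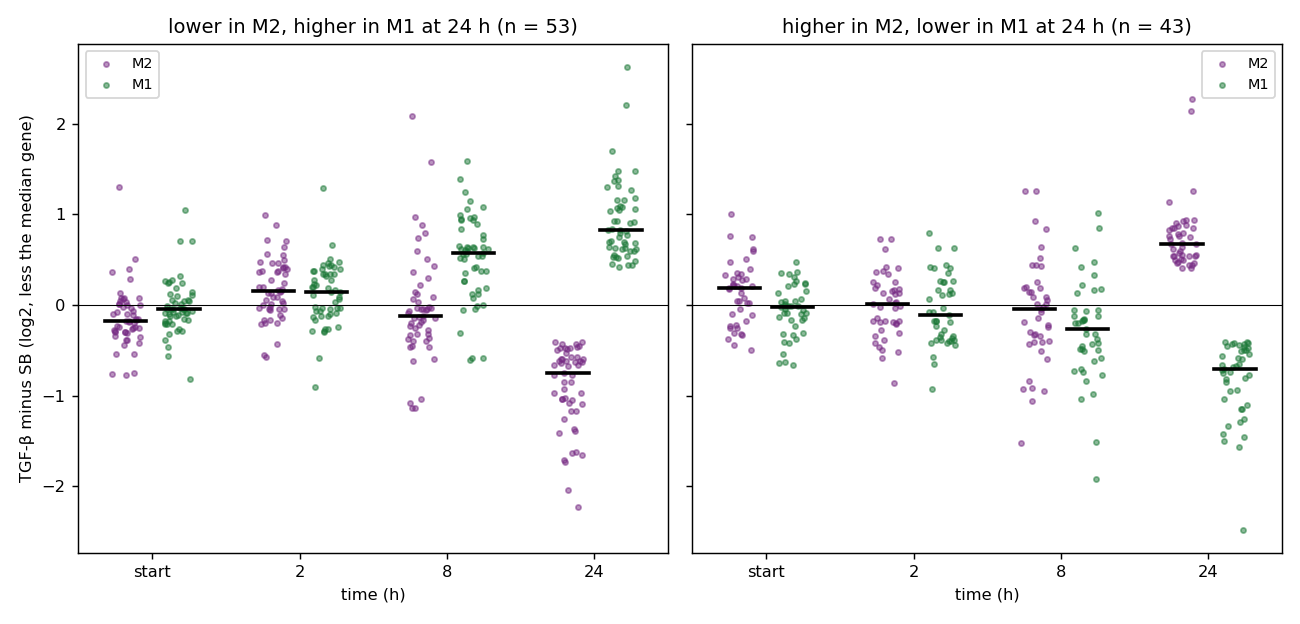
TGF-β minus SB in log2 units relative to the median gene (y axis) at the start, 2, 8 and 24 h (x axis) for each of the 53 genes lower in M2 and higher in M1 (left) and the 43 of the other direction (right), with M2 in purple, M1 in green and the median as a black bar. In the left panel M2 is at −0.12 at 8 h while M1 stands at 0.57, and in both panels M2 reaches its 24 h value only after 8 h; the 24 h values chose the genes.

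Each arm was also set against its own start, as a description. For the 53 genes the M2 change at 24 h had a median of −0.24 with TGF-β and 0.44 with SB, and the M1 change had 0.47 with TGF-β and −0.45 with SB, relative to the median gene of each contrast. The medians of the arms thus lay on opposite sides of 0, in libraries that chose the members. Each arm has its own start and its own median gene, and the part of each arm in the difference was not tested. In M2 11 of the 53 genes moved down with TGF-β and up with SB, while in M1 30 of 53 moved up with TGF-β and down with SB. For the 43 genes the M2 change was 0.29 with TGF-β and −0.31 with SB, and the M1 change was −0.49 with TGF-β and 0.26 with SB. The arms moved apart in 20 of the 43 in M2 and in 26 in M1. The median gene itself changed by −0.74 with TGF-β and −0.63 with SB in M2, and by −0.25 with TGF-β and 0.005 with SB in M1, so a member near 0 here was lower in TPM at 24 h in M2.

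**Figure D4:**
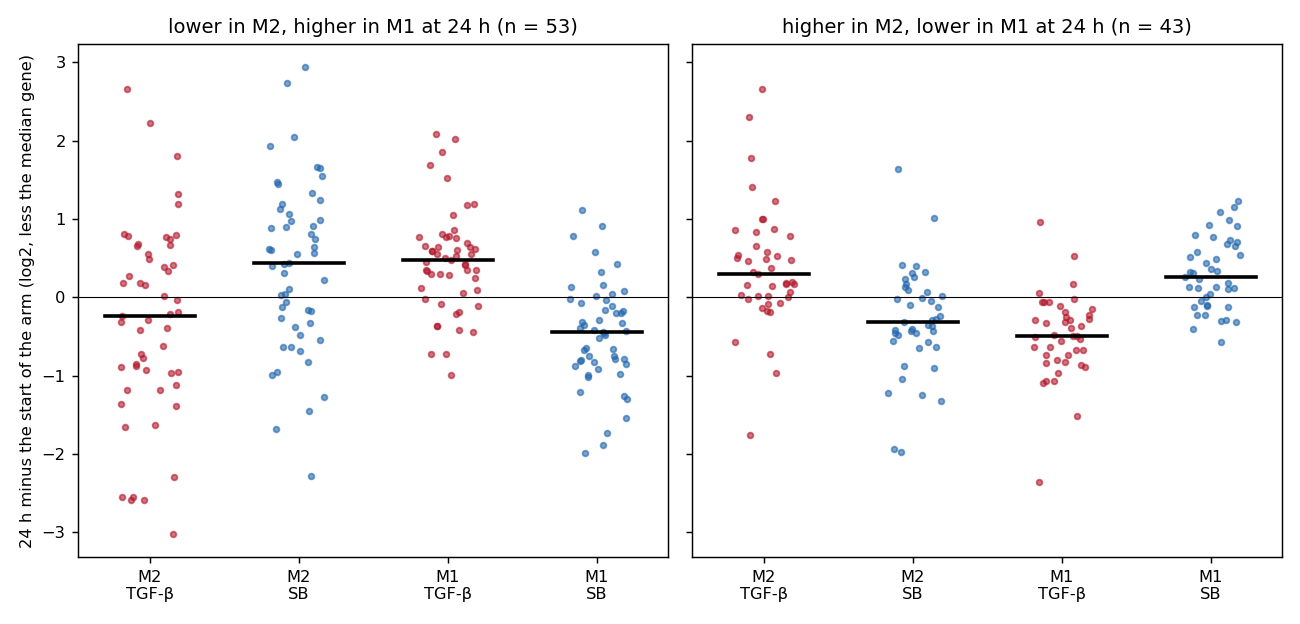
Change from the start of the arm to 24 h (y axis, log2, relative to the median gene) for each member in the TGF-β arm (red) and SB arm (blue) of M2 and of M1, with the median as a black bar; 53 genes left and 43 right. In the left panel the medians are −0.24 and 0.44 in M2 and 0.47 and −0.45 in M1, and in the right panel all 4 have the opposite sign.

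MDA-MB-231, which the rule did not use, showed neither pattern clearly in the adjusted calls. Of the 53 genes 43 were tested there, with a median of −0.24 at 24 h, and limma called 2 higher and 1 lower, where 1.03% and 0.495% of all genes were. At an unadjusted p under 0.05 there were 12 of these 43, 2 higher and 10 lower, the side of M2, where 11.3% of all genes were. Of the 43 genes 31 were tested, with a median of −0.07, and limma called 0, with 4 at an unadjusted p under 0.05, where 11.3% of all genes were. In TPM the TGF-β libraries lay below the SB libraries in 23 of the 43 tested among the 53, against 27.3% of all genes, and in 12 of the 31. The split depended on the scaling, since the median gene had a difference of −0.33: with TPM as deposited limma called 9 of the first group and 4 of the second, all lower, where 3.74% of all genes were. With median of ratios it called 2 higher and 4 lower in the first and 1 lower in the second, where 2.1% and 1.14% of all genes were. With no filter on low values it called 4 higher and 7 lower in the first and 1 higher and 5 lower in the second, where 6.29% and 2.01% of all genes were. At 8 h limma called 1 member higher, where 0.749% of all genes were, and 0 lower, where 0.193% were; the call was lost without any 1 of the 6 libraries. NONHSAG041242.2 was listed at or near 0 in every MDA-MB-231 library, at no more than 0.427 TPM, and was not tested there.

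Some of the members differed between M2 and M1 before any stimulation. In non-stimulated cells limma called 17 of the 53 genes higher in M2 than in M1 and 7 lower, where 4.86% and 5.38% of all genes were called. The called differences of the 53 genes ran from 0.54 to 1.93 among the higher and from −2.86 to −0.71 among the lower. Among those of the 53 with at least 5 TPM, 15 of 35 were higher and 3 lower, against 11.9% and 8.28% of genes at that level. Of the 43 genes 3 were called higher, at 1.04 to 3.06, and 4 lower, at −1.79 to −0.84. The median of the 53 genes was 0.33, and with TPM as deposited it was −0.002, since the median gene had a difference of −0.34; on that scale 11 of the 53 were called higher and 17 lower, and 3 and 12 of the 43, where 2.12% and 17.1% of all genes were. The most abundant member had 516, 528 and 703 TPM in non-stimulated M2 cells, against 355, 478 and 463 TPM in M1 cells (0.76, SE 0.18; limma, adjusted p = 0.00435). NONHSAG007423.2 had 5.99, 7.96 and 7.19 TPM in M2, against 4.19, 3.59 and 3.20 TPM in M1, without overlap (1.19, SE 0.38; limma, adjusted p = 0.0382). That call was lost with no filter, with TPM as deposited and without 5 of the 6 libraries in turn.

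The members of the 2 directions stood at different levels. The 53 genes had a median level of 12.8 TPM in M2 and 12.9 TPM in M1, and 15 and 14 of them were above 50 TPM, or 28.3% and 26.4%, where 6.45% and 7.55% of all genes tested in both lines were. The 43 genes had medians of 1.37 TPM in M2 and 2.62 TPM in M1, near those of all genes at 1.22 and 2.44 TPM. Level moved with the response in M2. The median difference of all genes at 24 h in M2 ran over 8 classes of mean level between 0.09 at up to 0.5 TPM and −0.32 above 50 TPM, and at 8 h the same end classes had 0.00 and −0.22. In M1 the end classes had 0.11 and −0.02 at 24 h. With the median of its own level class subtracted in place of that of all genes, a setting added after the levels were seen, 39 of the 53 members and 35 of the 43 still met the rule. The part of level in the members' values beyond this was not tested.

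The choice also leaned on low values and single libraries. With a pseudocount of 1 the rule picked 47 genes of the first direction and 22 of the second, and with a mean of at least 1 TPM in each line it picked 36 and 21. With each of the 12 libraries at 24 h left out in turn, 36 of the 53 members and 20 of the 43 met the rule every time. A group of 2 libraries overlaps less easily, so these repeats pick more genes. The first direction held 87 genes without M2 SB replicate 3 and 81 without M1 TGF-β replicate 1. The second held 84 without M2 TGF-β replicate 1, 65 and 69 without M2 SB replicates 2 and 3, and 90 without M1 TGF-β replicate 3.

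Some members had close NONCODE numbers. In 3 pairs, all among the 53 genes, the identifiers lay within 5 numbers of each other. One pair had −1.71 and −1.62 in M2 and 0.52 and 0.53 in M1 at 24 h, and 0.64 and 0.63 in M1 at 8 h. Another had −1.36 and −1.08 in M2 and 1.05 and 1.03 in M1 at 24 h. The last had −1.04 and −1.25 in M2 and 0.63 and 0.83 in M1 at 24 h. The rule fixed the signs of these 24 h values, and the pairs were not compared with other members. Positions were not used here, and whether such pairs share reads was not tested.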

How the data were processed

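Total RNA was isolated with TRIzol and sequenced on the Illumina platform, per the labels' protocols. Per the submitters' processing notes, the build was GRCh38 and the tools were StringTie 1.3.6, HISAT2 2.2.0, cutadapt 2.10 and FastQC. For strand setting, filters and annotation release the entry is: not given in the sources used here. TPM of lncRNA genes are what the authors deposited, each library scaled to the sum of these genes, which ties every value to the most abundant ones. Without read counts no counting error or floor could be given. Reads of overlapping, antisense or near-identical genes cannot be told apart.

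Columns were matched to samples by their labels. The series text speaks of fewer samples than the 72 listed. The titles set the time of the earliest SB samples. The series text calls the triplicates biological; should they share a culture, the p-values reflect technical spread alone.

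Tests were run in R 4.3.3 with limma 3.58.1 (eBayes with trend, after lmFit and contrasts.fit) and data.table version 1.17.8, on log2(TPM + 0.5), a scale that understates changes of low genes, over all 24 libraries of a line or the 48 libraries of M2 and M1. The median difference over the tested genes was subtracted, p-values were two-sided and adjusted by Benjamini-Hochberg over all genes tested, and calls needed an adjusted p under 0.05. Changes on the log2 scale were computed here from the deposited TPM. Percentages beside counts are shares of all genes tested. Each fit was tested on simulated data.

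The members and lists were chosen with earlier results of these data known. Named members are the first 2 of each direction by the smaller absolute difference with a mean of at least 1 TPM in both lines. Another 4 members, described by level, were chosen after their values were seen. Marker and lncRNA lists that need gene names were not used here, since 0 identifiers matched the RefSeq table or the GENCODE annotation. Alternatives were a pseudocount of 1 or 0.1, other filters, other scalings, other thresholds, a replicate block, the compared groups alone, and each library left out.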

Additional observations from a re-analysis of the deposited data

Results flagged for a closer look

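The TGF-β responses of M2 and M1 differed at 8 h, in libraries that did not choose the members, in 3 of the 96 genes by the test of the difference itself (limma, M2 minus M1 response, adjusted p under 0.05), where 0.421% of all genes were called lower and 0.169% higher. The count was 17 after median-of-ratios rescaling, and 1 with TPM as deposited, with no filter or without M1 SB replicate 2. All 3 were among the 53 genes that were lower in M2 and higher in M1 at 24 h, with differences from −1.29 to −1.12. In 1 of them TGF-β and SB differed in M2 at 8 h, and in the other 2 they differed in M1.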

How the results depend on the processing

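Counts of chosen genes changed by over 1.5 times at a threshold of 0.6 (26 of the first direction, against 53, and 17 of the second, against 43), and for the second direction also with a pseudocount of 1 (22) and with a mean of at least 1 TPM (21). With each library left out they ranged over 52 to 87 and 52 to 90. Calls among the members at 8 h ranged over 3 to 7 in M2 (8 with all libraries), 20 to 24 in M1 (26) and 1 to 3 for the difference between the lines (3) when a library was left out. Median of ratios gave 15 in M2 and 17 for the difference at 8 h, 1 at 2 h in M2, and 7 at 24 h and 4 at 8 h in MDA-MB-231. With no filter there were 1 for the difference at 8 h, 1 at 2 h in M2, 17 at 24 h and 0 at 8 h in MDA-MB-231. TPM as deposited gave 1 for the difference at 8 h, 2 at 2 h in M2 and 13 at 24 h in MDA-MB-231. With the compared groups alone there were 5 for the difference at 8 h, 1 at 2 h in M1 and 0 at 8 h in MDA-MB-231, where a pseudocount of 1 and a mean of at least 1 TPM gave 2 each. Calls at 2 h in M1 ranged over 1 to 2 without 1 library, those in MDA-MB-231 were 2 at 24 h and 0 at 8 h, and those between non-stimulated lines ranged over 22 to 28 (31). The causes were not tested. No value of a named member changed its sign among called results. This covers little, since in the main setting the only call of a named member outside 24 h was NONHSAG007423.2 between the non-stimulated lines. Same-numbered libraries varied together little at most (r from −0.044 to 0.136 across genes), so the numbers were not taken as pairs. The highest values were in M2 at 8 h, 0.136 for replicate 1 and 0.087 for replicate 3, with −0.018 for replicate 2. The replicate block gave 8 calls in M2 and 29 in M1 at 8 h, 4 for the difference, and 2 at 8 h in MDA-MB-231. TPM keeps no depth, so how far depth limits low members is unknown.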
